A study of Mus musculus with 2 samples.

Results

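The 9 genes of the integrated stress response described here are *Atf4*, *Ddit3*, *Trib3*, *Ppp1r15a*, *Chac1*, *Asns*, *Sesn2*, *Xbp1* and *Hspa5*, found by their symbols among the 31053 genes listed in both count matrices. They were read in the lungs of mice labelled *Pclaf* WT or *Pclaf* KO, 8 to 10 weeks old, at 1 week after bleomycin (1.35 U/kg in the description of the series), each genotype giving 1 single-cell RNA library made in 10x Genomics droplets. Both groups received bleomycin, an agent that injures the alveolar epithelium, and no library from an uninjured lung was analysed here. *Pclaf* encodes a factor bound to PCNA in dividing cells, and the KO mice came from a line established in earlier work. Lung cells had been digested with collagenase and elastase and sorted as Cd31-/Cd45-/Epcam+, that is, as epithelial cells without endothelial or blood cells. How many animals gave each library is not stated in the labels. Since neither genotype has a replicate, none of the differences could be tested, and all intervals below are 95% intervals for counting error only.

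The integrated stress response is the pathway by which cells slow translation under amino acid shortage, misfolded protein in the endoplasmic reticulum (ER), heme shortage or viral RNA. The kinases GCN2, PERK, HRI and PKR each phosphorylate the initiation factor eIF2α, which lowers protein synthesis in general while the mRNA of the transcription factor ATF4 is translated more. ATF4 then raises genes for amino acid supply, for redox balance and for the arrest or end of the response. The unfolded protein response shares its PERK branch, and adds the branches of IRE1, which splices *Xbp1* mRNA, and of ATF6, which raises ER chaperones such as the product of *Hspa5*. In the injured lung, alveolar type 2 (AT2) cells, which make surfactant, give rise to alveolar type 1 (AT1) cells through a transitional state high in *Krt8*.

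The *Pclaf* WT library held 30669 barcodes with 98171818 unique molecular identifiers (UMIs), and the *Pclaf* KO library 17172 barcodes with 111267567 UMIs, beside 16000 cells per group named in the labels. After the study's limits on genes and mitochondrial UMIs, 30187 and 15637 cells were kept, with a median of 2127 and 5957 UMIs. Cells were gated by marker genes, none of them among the 9 genes. Epithelial classes took up 5.83% of the kept WT cells and 68.2% of the kept KO cells, so most cells of the WT library went against the sort. Over the kept cells, *Pclaf* itself stood at 39.3 counts per 1000000 UMIs (CPM) in WT against 5.19 in KO. The kept cells differ in makeup between the libraries, as just given, and the part of makeup in this gap was not tested. In AT2 cells with cell cycle markers, however, the level was 93.8 CPM (12 UMIs) in WT and 128.8 CPM (159 UMIs) in KO. The log2 ratio was 0.46 with an interval that held 0 (-0.39 to 1.44), so a loss in KO was not seen there, nor was a gain. The source of the *Pclaf* UMIs in KO was not tested. In AT2 cells without cell cycle markers, *Pclaf* ran the way the labels say, at -1.75 (-2.36 to -1.10). Because of the *Pclaf* UMIs in cycling AT2 cells of KO, the libraries are called "the library labelled WT" and "the library labelled KO". *Xist* and the Y-linked gene *Ddx3y* were both found in AT2 cells of both libraries, although the study's methods name male mice. There were 138 kept barcodes found in both libraries, of which 5 and 60 were AT2 cells and 1 and 8 were *Krt8*-high cells of WT and KO.

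The AT2 class held 846 cells of the library labelled WT and 7422 of that labelled KO (median 4940 and 6995.5 UMIs). The *Krt8*-high transitional class held 194 and 775 cells (median 3899 and 5187 UMIs). Activated AT2 cells, which the study sets apart by *Lcn2*, had no gate of their own here, so the AT2 class was not split by activation. The 4 markers of that state (*Lcn2*, *Il33*, *Lrg1* and *Cxcl17*) summed to 2596 and 2502 CPM in AT2 cells of WT and KO. In *Krt8*-high cells they summed to 136 and 281 CPM. The levels of the genes that set the gates follow from the gating and are given as a description. *Sftpc*, a surfactant gene, was at 117948 and 157302 CPM in AT2 cells and at 2571 and 4334 CPM in *Krt8*-high cells of the libraries labelled WT and KO. *Krt8* was at 209 and 223 CPM in AT2 cells against 1736 and 1709.8 CPM in *Krt8*-high cells, and *Cldn4* at 3.31 and 4.43 against 469.7 and 584 CPM. The *Krt8*-high class is a range of a marker score, not a type, with 49 cells just inside and 95 just outside its limits in WT and 130 and 154 in KO. The corresponding numbers for AT2 were 17 and 39 in WT, and 84 and 93 in KO. Barcodes poor in nuclear-retained RNA made up 16.2% and 11.6% of AT2 cells and 35.6% and 27.1% of *Krt8*-high cells.

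First, to see which arms of the response differ between AT2 and transitional cells, UMIs were summed over each class and library. In the library labelled KO, the deeper one, 8 of the 9 genes were at least 2-fold higher in *Krt8*-high cells than in AT2 cells, that is, all but *Xbp1*. Of all 15412 genes with at least 20 UMIs there, 32.6% were at least 2-fold higher and 9.42% at least 2-fold lower. In the library labelled WT, 5 of the 8 genes with enough UMIs passed (*Atf4*, *Ddit3*, *Ppp1r15a*, *Asns* and *Sesn2*), beside 19.3% of 11580 genes higher and 12.8% lower. The median log2 ratio over the 9 genes was 2.16 in the library labelled KO, where that of all genes was 0.54. It was 1.56 over 8 genes in the library labelled WT, where that of all genes was 0.24, and 2.07 with *Chac1*, whose 11 UMIs were under the minimum. *Trib3* (0.90) and *Hspa5* (0.52) were above 0 in WT without reaching 2-fold, and *Xbp1* was below 0 in both libraries.

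AT2 cells carry a large part of their UMIs in a few surfactant genes, so the scale matters here. The AT2 markers summed to 157611 and 204316 CPM in AT2 cells of WT and KO, and to 3940 and 6082 CPM in *Krt8*-high cells. When TMM factors were used in place of total UMIs, the median of all genes moved to -0.15 in WT and 0.02 in KO. The median of the 9 genes then moved to 1.17 and 1.64. Its gap to the median of all genes stayed at 1.32 and 1.62. This follows from the method, since such a factor shifts the log2 ratio of every gene alike. Of all genes that passed 2-fold in either direction, 60.3% were higher in *Krt8*-high cells of WT by CPM and 34.4% by TMM, and 77.6% and 51.4% in KO. Under TMM factors, 4 genes of WT stayed past 2-fold (*Atf4* did not) and *Xbp1* was at least 2-fold lower, and 7 genes of KO stayed past it (*Hspa5* did not). *Atf4* of WT also fell short of 2-fold without the class markers and surfactant genes in the total, with clusters in place of gates, after thinning to 1000 UMIs, and among cells with *Xist* or with *Ddx3y* alone.

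**Figure D1:**
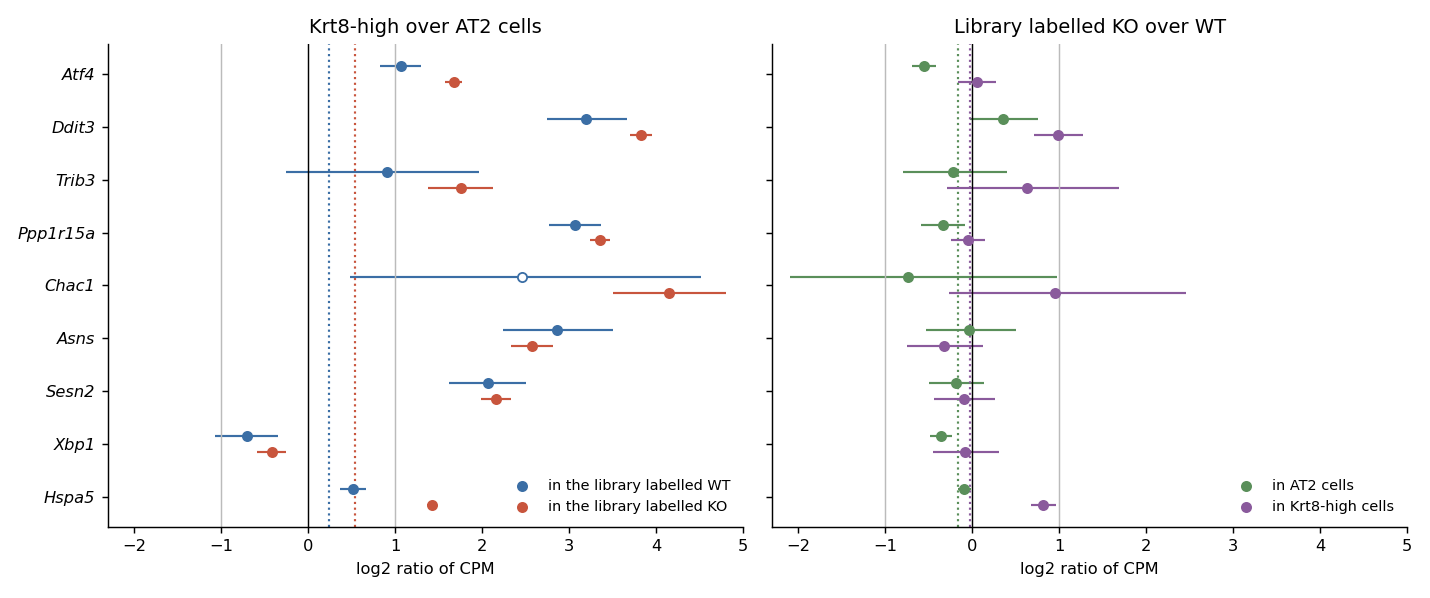
Log2 ratios of CPM for the 9 genes, with *Krt8*-high over AT2 cells on the left and the library labelled KO over that labelled WT on the right; points are ratios, horizontal bars 95% counting intervals, dotted lines the median of all genes tested, grey lines 2-fold, and the open circle a gene under 20 UMIs. On the left, *Atf4* (1.06 in WT), *Ddit3*, *Ppp1r15a*, *Asns* and *Sesn2* lie past 2-fold in both libraries and *Xbp1* lies below 0. On the right no gene reaches 2-fold and *Ddit3* of *Krt8*-high cells comes closest at 0.99.

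*Atf4* (chr15:80255184-80257541, plus strand, GRCm38) encodes the transcription factor through which the 4 eIF2α kinases act. Since its protein is set mainly by translation, its mRNA level does not measure ATF4 activity. *Atf4* was at 104 CPM in AT2 cells of the library labelled WT and at 70.6 CPM in those of the library labelled KO. In *Krt8*-high cells it was at 218 and 225 CPM, so the transitional cells of both libraries lay above the AT2 cells of both. The log2 ratio was 1.06 (0.82 to 1.30) in WT and 1.67 (1.57 to 1.77) in KO. The larger ratio in KO went with the lower level in its AT2 cells rather than with a higher level in its *Krt8*-high cells. Across all 18 classes of WT with at least 50 cells and all 14 of KO, *Krt8*-high cells had the highest *Atf4* level. Endothelial cells came next, at 132 and 109 CPM, with intervals of the ratio above 0 (0.51 to 0.92 and 0.78 to 1.31). Club cells, the secretory cells of the airway, were lowest at 53.9 and 38.7 CPM.

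*Ddit3* (chr10:127290774-127296288, plus strand) encodes CHOP, a transcription factor raised by ATF4 and linked to cell death under lasting stress. AT2 cells of WT and KO had 13.5 and 17.2 CPM, and *Krt8*-high cells 124 and 245 CPM. Hence the classes stood apart by a log2 ratio of 3.20 (2.74 to 3.67) in WT and 3.83 (3.70 to 3.96) in KO. Of all genes tested, 98.6% and 97.3% had a lower ratio. *Krt8*-high cells were also first among all classes, and the interval of their ratio over each other class lay above 0 for 17 of 17 classes in WT and 13 of 13 in KO. Neutrophils came next in WT at 62.6 CPM and interstitial macrophages in KO at 74.3 CPM, a class of 117 cells with a median of 785 UMIs. *Ddit3* overlaps *Mars* on the opposite strand, which was at 7.95 and 11.7 CPM in AT2 cells and 25.3 and 25.9 CPM in *Krt8*-high cells, and a gene model on its own strand that was listed with 0 UMIs in both classes of both libraries. Whether strand was used in counting is not given in the sources used here.

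*Trib3* (chr2:152337422-152344032, minus strand) encodes a pseudokinase that is raised by ATF4 and CHOP and dampens both. It was sparse, at 5.96 CPM (27 UMIs) and 5.09 CPM (277 UMIs) in AT2 cells and at 11.1 CPM (11 UMIs) and 17.2 CPM (78 UMIs) in *Krt8*-high cells of WT and KO. The ratio was 1.76 (1.38 to 2.13) in KO, whereas in WT the interval ran from -0.26 to 1.96, so a difference was not detectable at that depth. *Krt8*-high cells had the highest level in both libraries, with endothelial cells next in WT (6.27 CPM) and AT1 cells next in KO (6.48 CPM), and the WT interval of that gap held 0 (-0.21 to 1.72).

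*Ppp1r15a* (chr7:45522916-45526268, minus strand) encodes GADD34, the subunit that directs a phosphatase to eIF2α and so ends the response. Its level in AT2 cells of WT and KO was 32.4 and 25.6 CPM, and in *Krt8*-high cells 271 and 262 CPM. The log2 ratios of 3.06 (2.77 to 3.36) and 3.36 (3.24 to 3.47) were close to those of *Ddit3*. Unlike *Ddit3*, it was as high in another class, since neutrophils of WT were at 285 CPM, above *Krt8*-high cells by 0.07 (-0.15 to 0.30), so the order of these classes is not settled. No neutrophil value is given for KO, which held 33 such cells. Club cells were lowest again, at 10.1 and 8.80 CPM.

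*Chac1*, *Asns* and *Sesn2* are targets of ATF4 with metabolic roles. *Chac1* (chr2:119351229-119354381, plus strand) encodes an enzyme that breaks down glutathione, and *Asns* (chr6:7675169-7693254, minus strand) the synthetase of asparagine. The C/EBP-ATF response element, where ATF4 binds with a C/EBP partner, is written TGATGNAA. It was looked for on both strands in the 250 bases before the start of each of the 9 genes, in RefSeq promoters of GRCm38.p6. A match was present for *Chac1* and *Asns* and for none of the others, among 3.45% of 32851 promoters. The stretches around them are shown because they carry the letters of the element, in capitals (on the opposite strand for *Chac1*):
*Chac1*, chr2:119351038-119351067, plus strand: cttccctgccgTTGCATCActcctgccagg
*Asns*, chr6:7693214-7693243, minus strand: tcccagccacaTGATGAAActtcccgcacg
The element lies 193 to 186 bases before the RefSeq start of *Chac1* and 23 to 16 bases before that of *Asns*. The gene spans given here are those of GENCODE, whose starts can differ, and the *Asns* stretch lies inside its GENCODE span. A match of letters is a description, and elements further away were not looked for.

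*Asns* was at 7.95 and 7.76 CPM in AT2 cells of WT and KO, and at 57.7 and 46.2 CPM in *Krt8*-high cells, a log2 ratio of 2.86 (2.23 to 3.50) and 2.57 (2.33 to 2.82). The next class was ciliated cells in WT (29.8 CPM) and AT1 cells in KO (40.9 CPM), and the interval of the KO gap held 0 (-0.20 to 0.56). In KO the interval over ciliated cells (39.3 CPM) held 0 as well (-0.02 to 0.49), whereas in WT it lay above 0 over every other class. Club cells were low, at 2.02 and 4.71 CPM. *Chac1* was the sparsest of the 9 genes. It had 5 and 36 UMIs in AT2 cells (1.10 and 0.66 CPM) and 6 and 53 UMIs in *Krt8*-high cells (6.07 and 11.7 CPM), with a ratio of 2.46 (0.48 to 4.51) in WT and 4.15 (3.51 to 4.80) in KO. Mesothelial cells, which line the lung surface, were highest for *Chac1* in WT at 12.4 CPM (9 UMIs) and next in KO at 6.95 CPM (8 UMIs). *Sesn2* (chr4:132492032-132510501, minus strand) encodes a leucine sensor that restrains mTORC1. It was at 20.3 and 17.8 CPM in AT2 cells and at 85.0 and 79.6 CPM in *Krt8*-high cells, a log2 ratio of 2.07 (1.62 to 2.51) in WT and 2.16 (1.98 to 2.34) in KO. Neutrophils followed in WT at 69.4 CPM, where the interval of the gap held 0 (-0.14 to 0.72), and AT1 cells followed in KO at 21.9 CPM, where it did not (1.40 to 2.35).

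*Hspa5* (chr2:34771970-34777547, plus strand) encodes BiP, the main chaperone of the ER lumen, and is raised by ATF6. Its promoter held the ER stress response element, CCAAT followed by 9 bases and CCACG, found in 0.113% of promoters and in none of the other 8 genes. The stretch lies inside the GENCODE span of *Hspa5*, whose start differs from that of RefSeq. It is shown because it is the one match of the ER elements searched, with the element in capitals, 65 to 47 bases before the RefSeq start:
*Hspa5*, chr2:34772020-34772048, plus strand: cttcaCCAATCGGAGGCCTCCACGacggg
The second form of this element (ATTGG, 1 base, CCACG) and the core of the unfolded protein response element (TGACGTGG) had no match in the 9 genes, and are found in 0.0304% and 0.563% of promoters.

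*Hspa5* was at 326 and 306 CPM in AT2 cells of WT and KO and at 467 and 820.4 CPM in *Krt8*-high cells. The log2 ratio was 0.52 (0.36 to 0.67) in WT and 1.42 (1.37 to 1.47) in KO, so here the libraries differed most in the *Krt8*-high class. *Hspa5* was not particular to epithelium. In WT it was highest in mesothelial cells (708 CPM) and fibroblasts (687 CPM). In KO mesothelial cells followed *Krt8*-high cells at 772 CPM, with an interval of the gap that held 0 (-0.02 to 0.20). AT1 cells of WT, at 577 CPM, lay above *Krt8*-high cells (log2 ratio of *Krt8*-high over AT1 -0.31, -0.51 to -0.10). Those of KO, at 617 CPM, lay below them (0.41, 0.32 to 0.51). *Xbp1* (chr11:5520659-5525893, plus strand) encodes the transcription factor made after IRE1 splices its mRNA. The counts do not tell spliced from unspliced mRNA. It went the other way from the other 8 genes, with 120.3 and 93.5 CPM in AT2 cells and 73.9 and 69.9 CPM in *Krt8*-high cells, a log2 ratio of -0.70 (-1.08 to -0.35) and -0.42 (-0.59 to -0.26). Endothelial cells (238 and 182 CPM) and fibroblasts (202 and 165 CPM) had the highest *Xbp1*.

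**Figure D2:**
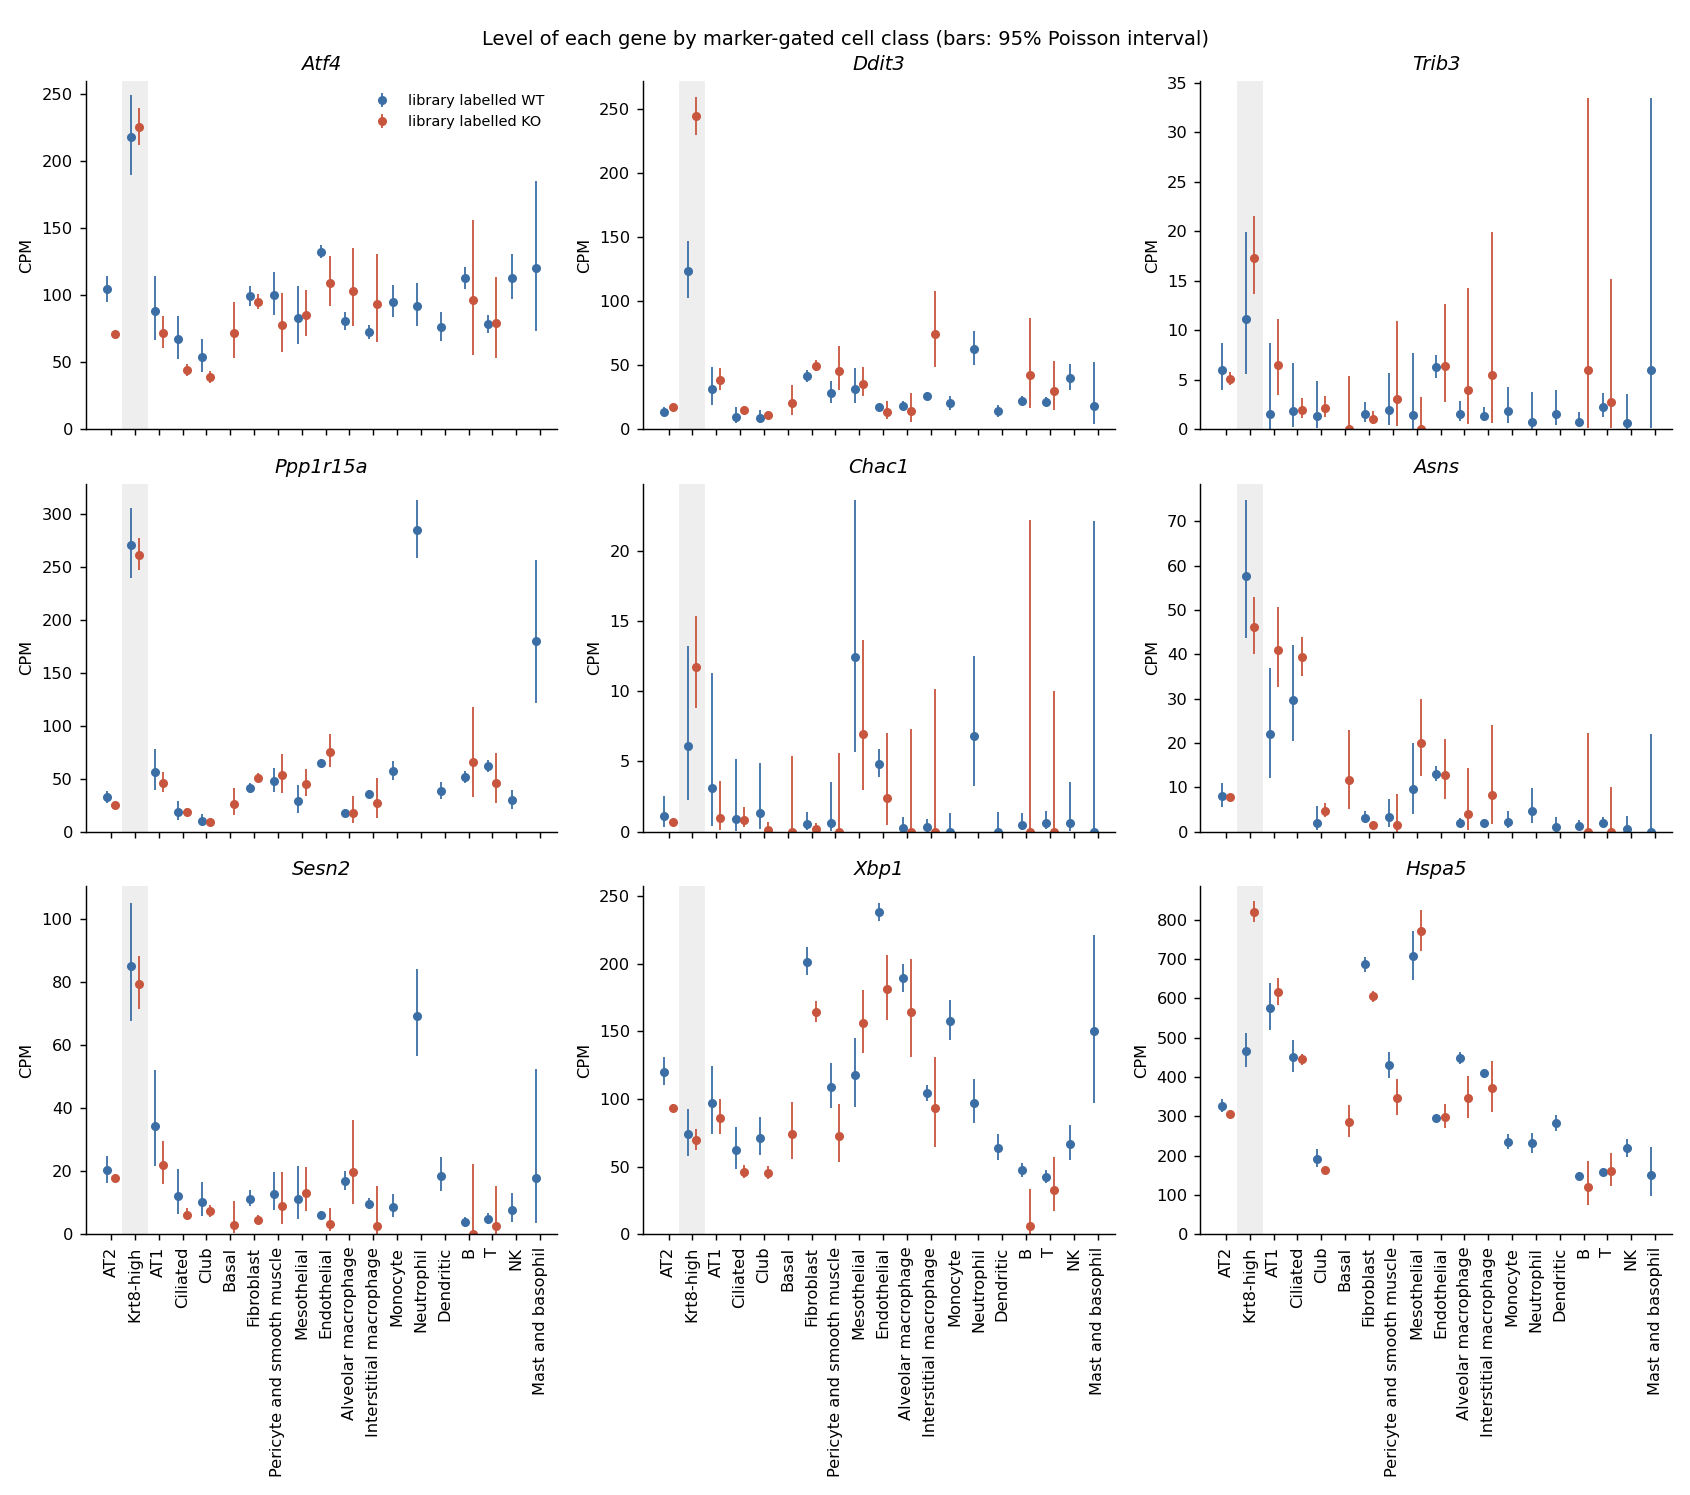
CPM of each of the 9 genes in each marker-gated class with at least 50 cells, in the library labelled WT (blue) and that labelled KO (red), with 95% Poisson intervals and the *Krt8*-high class shaded; each panel has its own linear axis. *Krt8*-high cells have the highest *Atf4*, *Ddit3*, *Trib3*, *Asns* and *Sesn2* in both libraries, neutrophils reach the same *Ppp1r15a* level, and *Xbp1* is highest in endothelial cells.

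Over all other classes, the interval of the ratio lay above 0 in *Krt8*-high cells of WT for 17 of 17 classes with *Atf4*, *Ddit3* and *Asns*, for 16 with *Ppp1r15a* and *Sesn2*, for 14 with *Trib3*, for 11 with *Hspa5*, for 10 with *Chac1* and for 2 with *Xbp1*. It lay below 0 for 9 classes with *Xbp1* and for 3 with *Hspa5*. In KO it lay above 0 for 13 of 13 classes with *Atf4*, *Ddit3*, *Ppp1r15a* and *Sesn2*, for 12 with *Hspa5*, for 11 with *Trib3*, *Chac1* and *Asns*, and for 4 with *Xbp1*, which lay below 0 for 6. The minimum of 20 UMIs was not applied to these counts of classes. Those of *Chac1* and *Trib3* in WT rest on only 6 and 11 UMIs in *Krt8*-high cells. Over endothelial cells of WT, with 95 *Chac1* UMIs, the interval of *Chac1* held 0 (-1.14 to 1.51). The arm of ATF4 thus had its highest levels in the transitional class, with the exceptions named above, and the gene of the IRE1 branch did not. Of all genes tested by CPM, 60.6% in WT and 70.3% in KO were also above 0 in *Krt8*-high over AT2 cells. The share of all genes with such intervals over the other classes is not given here. How unusual these counts are for a gene is therefore not known. When barcodes poor in nuclear RNA were left out, *Ddit3* was at 129 and 250 CPM in *Krt8*-high cells of WT and KO and at 13.3 and 17.3 CPM in AT2 cells. Without cells bearing cell cycle markers, *Ddit3* was at 125 and 248 CPM in *Krt8*-high cells.

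AT2, *Krt8*-high and AT1 cells and the alveolar cells between their gates were then put in 6 bins of the *Krt8*-high marker score. Each of these cells had at least 1000 UMIs. *Ddit3* of the library labelled KO was at 13.1, 17.2 and 24.8 CPM in the bins from 0 to 0.05, 0.05 to 0.1 and 0.1 to 0.2, then at 133, 183 and 129.8 CPM in those from 0.2 to 0.3, 0.3 to 0.4 and 0.4 to 1. That of the library labelled WT was at 11.4, 20.02 and 23.3 CPM, and then at 58.5, 93.4 and 105 CPM. In both libraries the step fell at 0.2, which is also the least score for the *Krt8*-high gate. The KO level was higher in the next 2 bins. In the last bin it was lower than in the one before, and the intervals of the libraries overlapped. *Ppp1r15a* had its step at the same score, from 45.5 to 147 CPM in KO and from 52.1 to 226 CPM in WT. *Hspa5* went from 357 to 581 CPM in KO and from 383 to 565 CPM in WT at that score, and then on to 674.5 CPM in KO but to 463 CPM in WT in the last bin. *Xbp1* fell from 93.4 CPM in the first to 73.9 CPM in the last bin of KO, and from 121 to 63.0 CPM in WT. The makeup of the bins changed along with the score: AT2 cells made up 88.3% of the third and 31.6% of the fourth bin in KO, and 61.7% and 15.8% in WT. AT1 cells made up 7.05%, 19.0%, 28.4% and 12.8% of the bins from the third to the last in KO. In WT they made up 23.4%, 28.9%, 32.6% and 7.2%. By the gate itself, *Krt8*-high cells made up 0% of the third bin, and 25.6% of the fourth in KO and 24.6% in WT. The step therefore restates in part the difference between the gated classes.

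**Figure D3:**
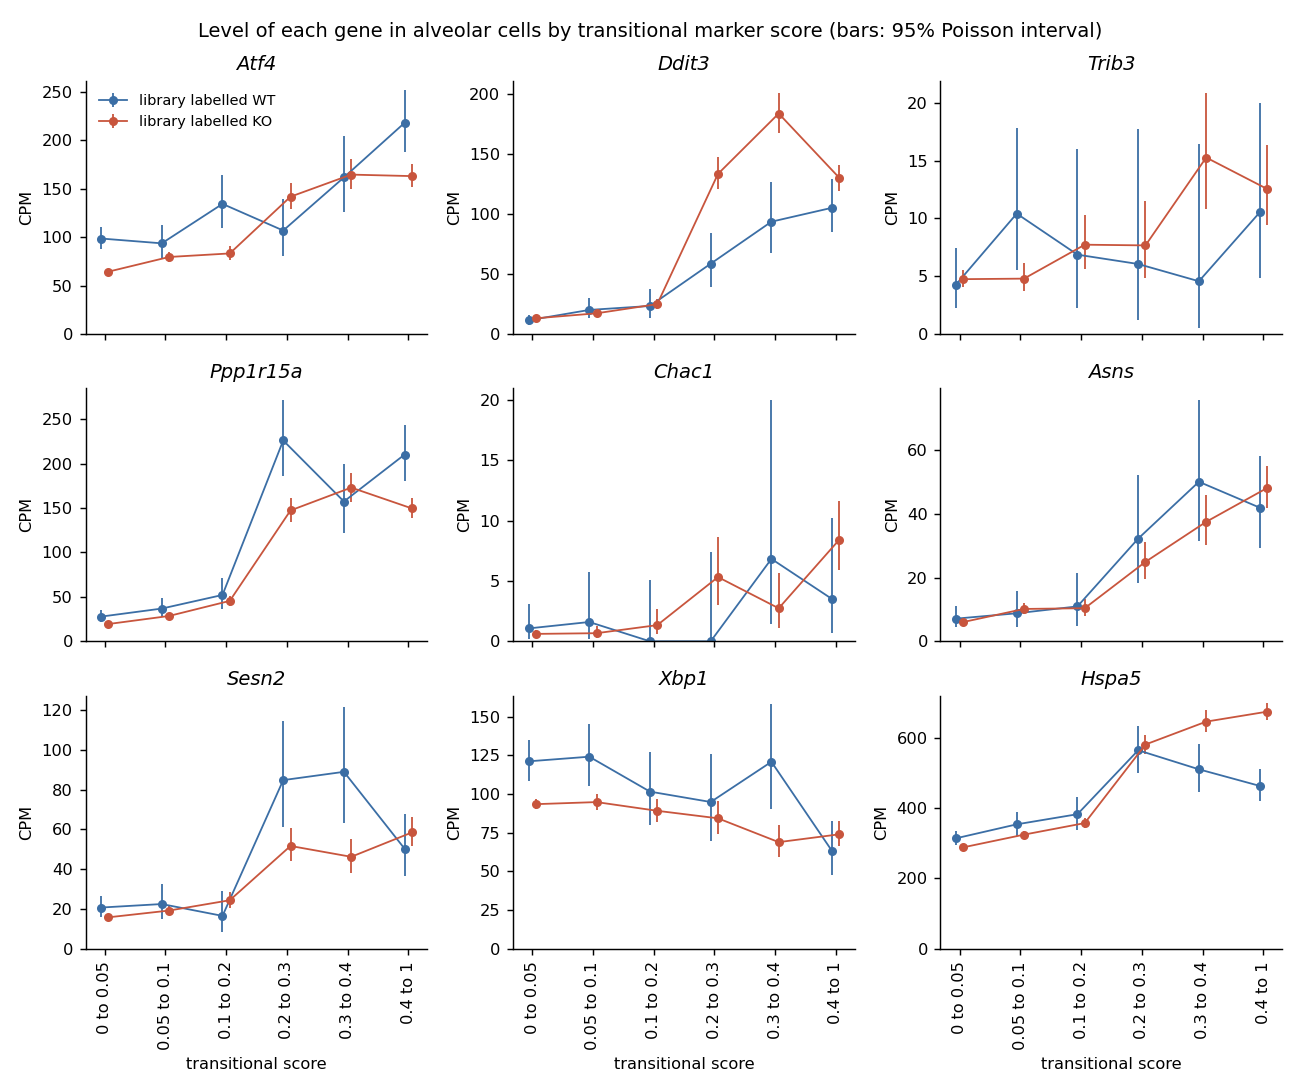
CPM of each of the 9 genes in alveolar cells of at least 1000 UMIs by their score on *Krt8*-high markers, for the libraries labelled WT (blue) and KO (red), with 95% Poisson intervals; each panel has its own linear axis and lines only join the bins. *Ddit3* and *Ppp1r15a* step up between the bins from 0.1 to 0.2 and from 0.2 to 0.3 in both libraries, from 24.8 to 133 CPM and from 45.5 to 147 CPM in KO. The edge at 0.2 is also the least score for the *Krt8*-high gate.

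Next, the levels were set side by side between libraries within each class. In AT2 cells, 0 of the 9 genes were at least 2-fold apart, beside 14.3% of 15159 genes tested. The 9 genes had a median of -0.23 on the log2 scale (KO relative to WT), and all genes one of -0.16. *Atf4* was lower in the library labelled KO by CPM (-0.56, -0.70 to -0.42), as were *Xbp1* (-0.36, -0.49 to -0.23), *Ppp1r15a* (-0.34, -0.59 to -0.09) and, slightly, *Hspa5* (-0.09, -0.17 to -0.01). *Ddit3* was at 0.35 (-0.02 to 0.75), and the intervals of *Trib3*, *Chac1*, *Asns* and *Sesn2* held 0. With TMM factors the median of the 9 genes was -0.01, 4 of them were above 0 in place of 1, and *Hspa5* changed its sign to 0.13. Markers of some other cell types moved with the library as well, though not all in one direction. In AT2 cells, the 11 endothelial markers, all with UMIs, summed to 542 (WT) and 45.5 CPM (KO), and the 7 T cell markers to 42.8 and 1.64 CPM, with all of them seen in WT. Fibroblast markers hardly moved, at 229 (WT) and 216 CPM (KO). Club cell markers were higher in KO, at 2168 (WT) and 3984 CPM (KO). Their part in the ratios was not tested.

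In *Krt8*-high cells, 0 of the 9 genes were at least 2-fold apart either, beside 10.2% of 11768 genes, and the median was 0.05 against -0.03 for all genes. *Ddit3* came closest, with 124 CPM (122 UMIs) in the library labelled WT and 245 CPM (1106 UMIs) in that labelled KO, a log2 ratio of 0.99 (0.71 to 1.27). It lay between 0.85 and 1.82 over 18 other settings, on either side of 2-fold. *Hspa5* was next, with 467 and 820.4 CPM and a ratio of 0.81 (0.67 to 0.96). *Chac1* was at 0.95, but on 6 and 53 UMIs its interval held 0 (-0.27 to 2.46). The intervals of *Atf4* (0.05), *Ppp1r15a* (-0.05), *Sesn2* (-0.10), *Xbp1* (-0.08), *Asns* (-0.32) and *Trib3* (0.63) held 0 as well. Thus the intervals that lay above 0 in this class were those of the genes for CHOP and BiP, not that of *Atf4*. The endothelial markers summed to 272 (WT) and 31.4 CPM (KO) in this class, and those of interstitial macrophages to 670.2 and 122 CPM. Other markers were higher in KO, with those of fibroblasts at 153 (WT) and 197 CPM (KO) and those of club cells at 2619 and 3515 CPM. Genotype, library and the makeup of the sort cannot be told apart with 1 library each.

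*Xist* and *Ddx3y* differed between libraries in the *Krt8*-high class too, at 163 and 67.8 CPM in WT and 921 and 13.9 CPM in KO. Among cells with *Xist* and no *Ddx3y*, *Ddit3* was at 71.6 CPM in 24 *Krt8*-high cells of WT and at 253 CPM in 439 of KO. Among those with *Ddx3y* and no *Xist*, it was at 142 CPM in 45 cells of WT and at 267 CPM in 37 of KO. The ratios were 1.82 and 0.92, on 24 and 45 cells of WT, and are given without an interval. The part of sex in the difference between libraries was not tested. The same split in AT2 cells gave *Ddit3* levels between 9.39 and 17.6 CPM.

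Fibroblasts were numerous in both libraries, with 1852 and 2098 cells, and are given for comparison. *Ddit3* stood there at 41.5 (WT) and 49.7 CPM (KO; log2 ratio 0.26, 0.05 to 0.47), and *Hspa5* at 687 and 605 CPM (-0.18, -0.24 to -0.13). *Sesn2* differed most among the genes with at least 20 UMIs there, at 11.2 (WT) and 4.54 CPM (KO; -1.30, -1.84 to -0.78). In interstitial macrophages the ratio of *Ddit3* was 1.52 (0.89 to 2.09), from 303 UMIs over 2390 cells of WT and 27 UMIs over 117 cells of KO. These values were not tested against the difference in *Krt8*-high cells.

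To count the cells with a UMI of each gene or of several, every cell was thinned to 1000 UMIs. This left out 50 and 89 AT2 cells and 29 and 56 *Krt8*-high cells of WT and KO. *Ddit3* then had a UMI in 1.38% of AT2 cells of WT (0.69 to 2.46, n = 796 cells) and 1.42% of KO (1.16 to 1.72, n = 7333). The share was 10.3% (6.12 to 16.0, n = 165) and 17.5% (14.8 to 20.5, n = 719) of *Krt8*-high cells. Before thinning the shares were 6.41% and 9.86%, and 33.9% and 41.0%. Club cells gave 0.649% and 1.14% at a median of 7551 and 8971 UMIs before thinning, against 5127.5 and 7036 for AT2 and 4817 and 5554 for *Krt8*-high cells, so the AT2 shares were about as low as in the class with the least *Ddit3*. *Ppp1r15a* was seen in 2.51% and 2.29% of AT2 and 22.4% and 19.2% of *Krt8*-high cells, and *Atf4* in 10.1% and 6.74% against 17.6% and 19.5%. *Xbp1* was seen in 9.42% and 8.37% of AT2 and 6.67% and 5.98% of *Krt8*-high cells. *Chac1* was seen in 0 of 796 AT2 and 0 of 165 *Krt8*-high cells of WT. By a floor of 3 cells this allows up to 0.377% and 1.82% of cells with a UMI at this depth, and says nothing of cells that express the gene below it.

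At least 2 of the 9 genes were seen in 8.79% of AT2 cells of WT (6.92 to 10.98) and 6.37% of KO (5.82 to 6.95), and in 30.3% (23.4 to 37.9) and 30.2% (26.8 to 33.7) of *Krt8*-high cells. The share in *Krt8*-high cells was thus the same within counting error in both libraries, although *Ddit3* and *Hspa5* were higher in KO. Without *Xbp1* and *Hspa5*, at least 2 of the 7 genes of the ATF4 arm were seen in 1.26% and 0.695% of AT2 cells and in 18.8% and 18.5% of *Krt8*-high cells. Neutrophils of WT gave 6.90%, while among club cells there were 0 of 154 in WT and 1 of 700 in KO. At least 4 of the 9 genes were seen in 5 *Krt8*-high cells of WT and 40 of KO, and in 0 AT2 cells of both libraries. Such shares rise with the level of each gene, and no share expected from the single genes was set beside them. They therefore do not show whether the genes share cells beyond what their levels give.

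**Figure D4:**
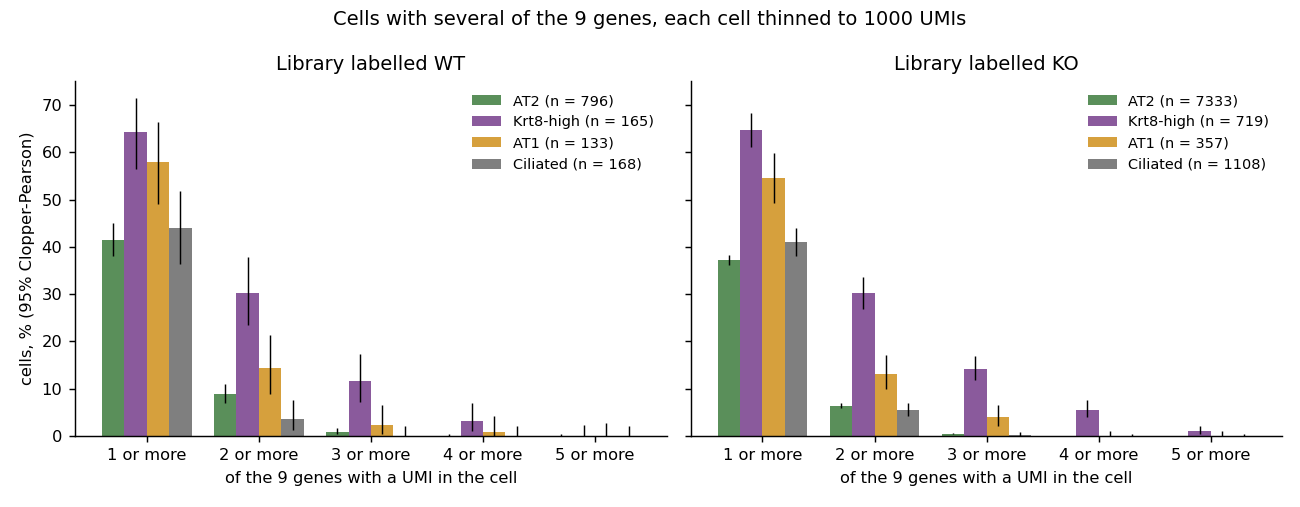
Percent of cells with a UMI of at least 1 to 5 of the 9 genes after thinning to 1000 UMIs, in 4 epithelial classes of the libraries labelled WT (left) and KO (right), with 95% Clopper-Pearson intervals. *Krt8*-high cells lead at every number of genes up to 4, with 30.3% in WT and 30.2% in KO at 2 or more against 8.79% and 6.37% of AT2 cells. Such shares also rise with the level of each gene by itself.

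In the library labelled KO, 126 thinned *Krt8*-high cells had a *Ddit3* UMI and 593 had none. *Atf4* was at 636 CPM in the former and 177 CPM in the latter (log2 ratio 1.84, 1.41 to 2.28). *Ppp1r15a* was at 564 and 218 CPM (1.38, 0.94 to 1.80), and *Hspa5* at 1638 and 709.9 CPM (1.21, 0.96 to 1.45). When cells were thinned to 500 UMIs instead, which left 76 cells with *Ddit3*, the intervals of these 3 genes again lay above 0 (1.47, 1.80 and 1.16). *Asns* (1.24, 0.15 to 2.25) and *Xbp1* (1.36, 0.45 to 2.23) were above 0 at 1000 UMIs but not at 500, where the interval of *Asns* held 0 (-1.19 to 2.38) and *Xbp1* turned to -1.12 (-6.49 to 1.53) on 1 UMI in cells with *Ddit3*. *Sesn2* was at 95.4 and 82.6 CPM, and its interval held 0 (-0.84 to 1.14), as did those of *Trib3* and *Chac1*, with 11 and 6 UMIs in all. Cells with *Ddit3* also had less *Krt8* (1200.4 against 1663 CPM) and less *Ager*, an AT1 marker (318 against 860.0 CPM), at both depths of thinning. The AT2 marker *Sftpc* was lower as well, at 2067 against 3987 CPM at 1000 UMIs and 1637 against 4235 CPM at 500. *Cldn4* was at 731 and 565 CPM at 1000 UMIs, but at 449 and 587 CPM at 500 UMIs. In AT2 cells of KO, where 104 of 7333 had a *Ddit3* UMI, the intervals held 0 for each of the other 8 genes, and the largest count behind them was 27 UMIs of *Hspa5*. At 500 UMIs, with 58 such cells, the interval of *Hspa5* lay above 0 (1.04, 0.26 to 1.73; 17 UMIs) and those of the others held 0. In WT only 17 *Krt8*-high cells had a *Ddit3* UMI, fewer than the 20 set as a minimum, so no such split is given.

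Then, 113 other genes of the pathway were taken in 10 lists, and named below are the highest and lowest of each list in the library labelled KO. The share of all genes beside these counts is that given above, 19.3% higher and 12.8% lower in WT and 32.6% higher and 9.42% lower in KO. Further names beside a count of 5 or fewer were chosen after their values were seen. Among 12 eIF2 kinases and regulators, 4 were at least 2-fold higher and 2 lower in *Krt8*-high cells of WT, and 5 and 2 in KO, numbers not far from those shares, with a median log2 ratio of 0.72 and 0.84. *Eif2s1*, which encodes eIF2α, was highest in KO at 2.12 (1.99 to 2.25) and stood at 1.64 (1.28 to 2.00) in WT. *Oma1*, a protease that relays mitochondrial stress to the pathway, was lowest in KO at -1.26 and stood at -1.60 in WT, and the other lower gene was *Eif2ak4*, which encodes GCN2 (-1.53 and -1.15). *Eif2ak3*, which encodes PERK, was at 0.26 and 0.71, and *Eif2ak1* and *Eif2ak2* did not reach 2-fold either.

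The targets of ATF4 for amino acid supply were mixed. Of those with enough UMIs, 6 of 15 were at least 2-fold higher and 2 lower (*Cth* and *Slc6a9*) in WT, and 9 of 17 were higher and 1 lower in KO, beside 19.3% and 12.8% of all genes in WT and 32.6% and 9.42% in KO. The medians were 0.88 and 1.08. *Slc7a11*, the cystine transporter, was highest in KO at 4.26 (3.72 to 4.80), from 0.90 to 17.2 CPM, and stood at 1.46 in WT. *Cth*, which makes cysteine from cystathionine, was at -2.73 in KO and -3.78 in WT. The 12 tRNA synthetases were alike: each was above the median of all genes in both libraries, 6 were at least 2-fold higher in each (19.3% and 32.6% of all genes), and their medians were 1.06 and 1.03. They ran from 0.52 to 1.95 in WT and from *Eprs* at 0.61 to *Cars* at 2.20 in KO. Of 13 transcription factors and stress genes, 7 were higher and 1 lower in WT, and 10 and 1 in KO, the lower ones near the share of all genes. *Tnfrsf10b*, a death receptor raised by CHOP, was highest at 3.64 (2.92 to 4.42) in WT and 4.29 (3.95 to 4.63) in KO, while *Vldlr*, a lipoprotein receptor, was lowest, at -2.38 in KO and from 43.3 to 5.06 CPM in WT.

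Genes of the ER itself behaved otherwise. Among chaperones and other ER folding and degradation genes, 0 of 26 were at least 2-fold higher and 1 lower (*Herpud1*) in WT, and 4 of 27 were higher (*Sdf2l1*, *Dnajb9*, *Manf* and *Derl1*) and 0 lower in KO, where 19.3% and 32.6% of all genes were higher. Their medians of 0.06 and 0.48 lay 0.18 and 0.06 below those of all genes, where the 9 genes lay 1.32 and 1.62 above. *Sdf2l1*, a cofactor of BiP, was at 1.53 (1.31 to 1.75) in KO and 0.61 (-0.06 to 1.24) in WT, and *Derl3* was lowest at -0.94 on 72 UMIs. Of the 5 sensors and proteases of the unfolded protein response that could be read, 0 reached 2-fold in either library, with *Atf6b* at 0.77 and *Ern1*, which encodes IRE1, at -0.23 in KO. Between libraries, KO over WT in *Krt8*-high cells, the ER folding and degradation list had a median of 0.30. That of all genes was -0.03, and 19 of 26 genes of the list lay above it. The lists of ATF4 targets, in the order above, had medians of -0.40, -0.11 and 0.15. The cause was not tested.

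Lists for other kinds of stress were read for comparison. The 5 mitochondrial chaperones and proteases were all above the median of all genes, at 0.97 in the median in WT and 1.18 in KO, with *Hspa9* at 1.57 and 1.56 and *Lonp1* at 0.84 and 0.99. Immediate early genes, which are raised within minutes by many stimuli, digestion of tissue among them, went the other way. Of 8, 4 were at least 2-fold lower in WT (*Fosb*, *Fos*, *Ier2* and *Egr1*) and 2 in KO (*Fosb* and *Fos*), none were 2-fold higher, and the medians were -0.95 and -0.62. The share of all genes at least 2-fold lower was 12.8% in WT and 9.42% in KO. *Fos* was at -2.03 and -1.26, and *Btg2* at 0.16 and 0.91. Among 6 heat shock genes, 1 was at least 2-fold higher in WT and 3 in KO (*Hspb1*, *Hsph1* and *Dnajb1*), with medians 0.16 and 0.47 above those of all genes. *Hspb1* was highest in both, at 2.74 in KO and from 204 to 1751 CPM in WT, whereas *Hspa1b* was at -0.33 and 0.02. Of the nuclear-retained RNAs, *Meg3* was at 1.35 in KO and *Neat1* at 0.10 and 0.11. The part of digestion or heat stress in the levels of the 9 genes was not tested.

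**Figure D5:**
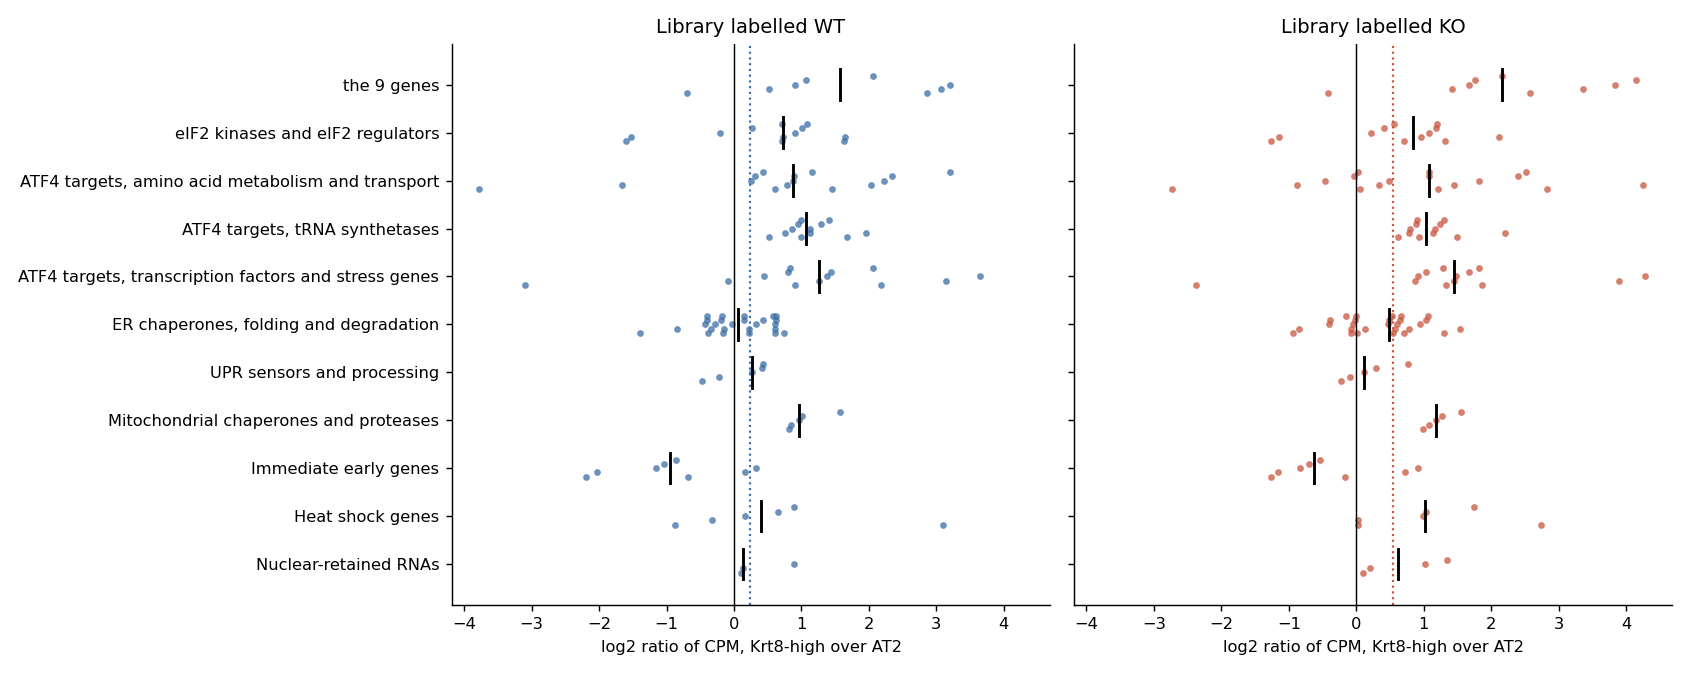
Log2 ratio of CPM, *Krt8*-high over AT2 cells, for each gene with at least 20 UMIs of the 9 genes and of the 10 other lists, in the libraries labelled WT (left) and KO (right); points are genes, black bars medians, and the dotted line is the median of all genes tested. The 9 genes have the highest median (1.56 and 2.16), the ER list lies at the median of all genes (0.06 and 0.48 against 0.24 and 0.54), and immediate early genes lie lowest (-0.95 and -0.62).

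Lastly, the genes most like the 7 genes of the ATF4 arm were looked for over the 32 pairs of class and library, which share 2 libraries, among 12591 genes. Pearson's r with the mean of the 7 genes was highest for *Tmbim4* (0.83), *Mafk* (0.82), *Cntn5* (0.81), *Blcap* (0.81), *Pttg1ip* (0.79), *Ptpn23* (0.79), *Wincr1* (0.79), *Cdkn1a* (0.78), *Rnf11* (0.78) and *Sertad1* (0.78). *Cdkn1a*, the inhibitor of cyclin-dependent kinases p21, was at 179 and 144 CPM in AT2 cells and at 2118 and 2491 CPM in *Krt8*-high cells of WT and KO. *Mafk*, a small MAF transcription factor, was at 16.3 and 13.2 CPM against 70.9 and 67.9 CPM. Of the 9 genes themselves, *Atf4* (0.68), *Ppp1r15a* (0.67), *Chac1* (0.62) and *Ddit3* (0.62) followed the rest of the arm most, then *Sesn2* (0.54), *Hspa5* (0.47), *Trib3* (0.43) and *Asns* (0.42), and *Xbp1* least (0.19). These are descriptions over classes that share a library and its depth. Each gene of the ranking was also higher in *Krt8*-high than in AT2 cells of both libraries. The ranking may thus rest largely on the *Krt8*-high class, where most of the 7 genes were highest. Whether these genes follow the arm across the other classes was not tested.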

How the data were processed

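UMI counts per gene and barcode, raw and not normalized, were deposited by the authors as 1 matrix for each of 2 libraries. The submitters' processing notes name Cell Ranger 3.1.0 and STAR with GRCm38 and mm10, whereas the matrix headers name version 5.0.0. No column was left unmapped. Depth was 98171818 and 111267567 UMIs, and the lowest barcode had 500.

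Cells with over 200 and under 5000 genes and under 20% mitochondrial UMIs were kept, as in the study. Each marker was scaled to a full score at 25% of its level in its 200 highest cells, and a cell joined the class whose mean score was at least 0.2 and led the next by 0.1. Classes under 50 cells gave no value. UMIs were summed per class and library and given as CPM of all UMIs, with exact Poisson intervals, exact conditional intervals for ratios and Clopper-Pearson intervals for shares, at 95%. For 2-fold calls and medians a gene needed 20 UMIs over both sides, and 2-fold counted as apart. A count of 0 was read against a floor of 3 counts. Doublets were kept: Scrublet (scanpy 1.11.5) marked 0 cells in both libraries at its own threshold, so it had not worked. Python 3.11.15, numpy 2.4.6, scipy 1.17.1, pandas 2.3.3 and edgeR 4.0.16 in R 4.3.3, for TMM factors only, were used. The ratio and its interval were tested on simulated counts with counting error only, which is what the interval assumes. The simulated counts had no spread between cells or libraries, so they do not show how the interval does with such spread.

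The genes named are the 9 genes, the highest and lowest of each list in *Krt8*-high over AT2 cells of the library labelled KO, and the 10 genes most correlated with the mean of the standardized log2(CPM + 1) of the ATF4 arm among genes of at least 20 CPM in a class. The 9 genes and the lists were chosen with earlier results of these data known. The alternatives were other limits on cells, clusters (Leiden, 43 clusters) in place of gates, a stricter gate, other denominators, TMM factors, means over cells, minimums of 1 and 50 UMIs, and thinning to 1000 or 500 UMIs. Others were added after seeing the data: leaving out the 6% highest Scrublet scores, barcodes with under 0.2% nuclear-retained RNA, cells under 1000 UMIs or barcodes found in both libraries, and keeping cells with *Xist* or *Ddx3y* alone. Positions come from the GENCODE annotation of GRCm38 and promoter sequences from RefSeq (GRCm38.p6).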

Additional observations from a re-analysis of the deposited data

Results flagged for a closer look

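Among the 9 genes and the genes named from the lists, *Hspa5*, *Fos* and *Btg2* had opposite signs of the ratio in AT2 and *Krt8*-high cells. The ratio is that of the library labelled KO over that labelled WT, with counting intervals on either side of 0. The share of all genes that split this way is not given here, so how unusual it is remains unknown. The medians of all genes also differed, at -0.16 in AT2 and -0.03 in *Krt8*-high cells. *Hspa5* was at -0.09 (-0.17 to -0.01) in AT2 and 0.81 (0.67 to 0.96) in *Krt8*-high cells, a gap of 0.90 on the log2 scale. With TMM factors its AT2 value was 0.13, so the signs were then alike. *Fos* was at -0.34 and 0.43, a gap of 0.77, and *Btg2* at -0.28 and 0.47, a gap of 0.75. Neither *Fos* nor *Btg2* was read with TMM factors. With 1 library per genotype, the difference was not tested for any of them.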

How the results depend on the processing

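No paired analysis was possible because each genotype has 1 library, and no replicate could be left out. No ratio or median that was past 2-fold changed its sign, but smaller ones did. Counted as moved were a count over 1.5 times from the first, a ratio or share outside its counting interval, and a median outside the interval of its middle genes. By this, 31 of 150 medians, counts and shares and 92 of 616 ratios of single genes moved. For *Krt8*-high over AT2 cells of WT, the median was 1.17 with TMM factors and 2.07 with a minimum of 1 or of 50 UMIs, and 3 of 6 genes were 2-fold higher after thinning to 1000 UMIs. For KO, the median was 1.64 with TMM factors, 1.85 without class markers and surfactant genes, 2.40 as a mean over cells, 1.96 in cells with *Xist* alone and 1.79 in those with *Ddx3y* alone. Between libraries, the count of 0 genes 2-fold apart in AT2 cells became 1 as a mean over cells and with *Xist* alone (*Chac1*), and 1 after thinning (*Asns*). In *Krt8*-high cells it became 2 with no upper limit on genes, TMM factors or without the highest Scrublet scores (*Ddit3* and *Chac1*), and 2 with *Ddx3y* alone (*Ppp1r15a* and *Asns*). It became 3 with *Xist* alone (*Ddit3*, *Trib3* and *Xbp1*), and 1, either *Ddit3* or *Chac1*, with a mitochondrial limit of 10%, at least 500 genes, a stricter gate, means over cells, thinning, and without nuclear-poor barcodes, cells under 1000 UMIs or shared barcodes. The median there was 0.62 with *Xist* alone and 0.61 with *Ddx3y* alone. Thinned to 500 UMIs, at least 2 of the 9 genes were seen in 2.84% and 2.21% of AT2 and 11.9% and 13.5% of *Krt8*-high cells of WT and KO. Lower shares follow from the method, since fewer UMIs are kept per cell. The cause of the other changes was not tested. Leaving out Scrublet's own doublets gave no value, since it marked 0 cells. *Xbp1* of WT, -0.70, was at 0.55 in cells with *Xist* alone, which in the *Krt8*-high class were 24. Between libraries, *Hspa5* of AT2 cells turned to 0.13 with TMM factors, *Asns* of AT2 cells (-0.03) ran from -0.43 to 1.22, and *Chac1* of *Krt8*-high cells (0.95) turned to -0.40 as a mean over cells. *Trib3* and *Chac1* were limited by depth, with 11 and 6 UMIs in *Krt8*-high cells of WT.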
